A study of Mus musculus with 4 samples.

Results

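Glucose uptake, glycolysis and the pentose phosphate pathway were examined through 34 genes, found by their symbols in the count tables of mouse Ter119+ bone marrow cells. Ter119 is a surface antigen of the erythroid lineage, carried by nucleated erythroblasts and by reticulocytes. These symbols matched 35 of the 56691 gene identifiers, since Aldoa had 2, and 33 identifiers passed the filter on low counts and were tested. The libraries were made from poly(A) RNA of 2 genotypes, Med16 KO (2 libraries) and Med16 fl/fl, with floxed alleles (2 libraries), all with a time label of 3 weeks. Med16 encodes a tail subunit of Mediator, the coactivator through which transcription factors reach RNA polymerase II. The titles of the KO libraries carry the letters DK, which the labels do not explain, and the genotype label was used. What the weeks are counted from, the Cre driver, the exons removed and whether the fl/fl mice carried Cre are not stated by the labels. Nor do they state whether replicate libraries are different mice, so the p values reflect library-to-library spread only, and that spread could be technical.

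Red cells lose their mitochondria as they mature and then depend on glycolysis for ATP. A side branch of glycolysis that is prominent in red cells makes 2,3-bisphosphoglycerate, which lowers the oxygen affinity of haemoglobin, and the pentose phosphate pathway supplies the NADPH that keeps glutathione reduced. Several steps are encoded by more than 1 gene, and erythroid cells are known for the use of particular ones, such as the red cell transcript of Pklr for pyruvate kinase and Hk1 for hexokinase.

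Each library held between 6749196 and 7216333 counts assigned to genes. Med16 stood at 2.25 and 4.41 CPM (counts scaled to a common library size with TMM factors) in the KO libraries, against 23.2 and 18.4 CPM in the fl/fl libraries, so the targeted gene followed the labels. The erythroid label was checked against 15 genes of erythroid identity, whose summed level was 187618 and 198710 CPM in KO and 198480 and 198606 CPM in fl/fl. Globins carry that sum: Hba-a1 alone was at 71874 and 80704 CPM in KO against 67658 and 64283 CPM in fl/fl. Of the 14 genes of the list that were tested, 10 were called lower and 3 higher, with a median log2 fold change of -0.37, against 9.89% lower and 8.5% higher among all genes tested. Markers of other marrow cells were present as well: the summed level of 16 late neutrophil genes was 19519 and 19847 CPM in KO against 15305 and 15067 CPM in fl/fl. That of a list of 11 primary granule genes, of which 10 were tested, was 4828 and 5009 CPM in KO against 2298 and 2276 CPM in fl/fl. In these bulk libraries a change in the share of a cell type and a change in RNA per cell cannot be told apart.

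Genes of sugar metabolism were mostly higher in Med16 KO where they changed. Of the 33 identifiers tested, 15 were higher, 1 was lower and 17 were not called (quasi-likelihood test in edgeR; threshold 0.05 for the p adjusted by Benjamini-Hochberg over all 13052 genes tested). Over all genes tested 8.5% were called higher and 9.89% lower, 1109 and 1291 genes (1365 and 1055 when scaled by library size alone). Leaving out fl/fl library 1 or 2 gave 506 and 454 genes higher and 769 and 704 lower, and leaving out KO library 1 or 2 gave 1839 and 1706 higher and 2159 and 2172 lower. For the 33 identifiers the same fits gave 12, 12, 15 and 16 higher and 1, 2, 4 and 4 lower. The called share rose with the level of a gene: among all genes with a mean of at least 50 CPM, 17.5% were higher and 28.2% lower, while of the 21 sugar metabolism genes at that level 13 were higher and 1 was lower. The median log2 fold change was 0.43 over the 33 identifiers and 0.02 over all genes tested. With an offset for GC content these medians were 0.22 and 0.00. Both KO libraries lay above both fl/fl libraries for 19 of the 33, against 29.4% of all genes tested, and below them for 8, against 28.2%. In each of the 16 called genes the ratio of the genotype means was larger than the gap between the libraries of either genotype. The same held for 7 of the 17 not called. The call itself weighs the change against that spread, so this adds no support to the calls.

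**Figure D1:**
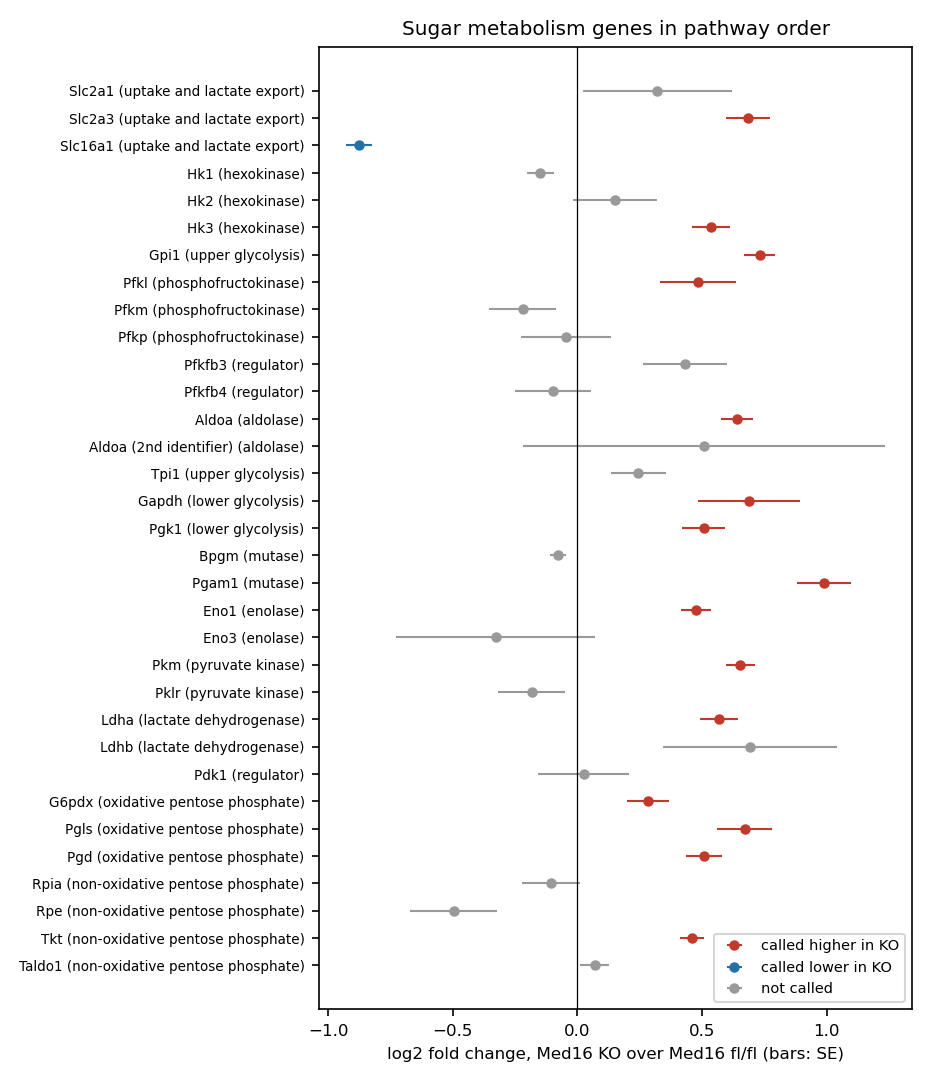
Log2 fold change of Med16 KO over Med16 fl/fl for the 33 tested identifiers, in the order of the pathway, with bars showing the SE of the edgeR fit (n = 2 libraries per genotype). The 15 identifiers called higher lie between 0.28 and 0.99, and Slc16a1, the one identifier called lower, has the lowest value at -0.88.

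The upstream sequences of 5 genes are shown because they span what the libraries showed: the single gene that fell (Slc16a1), the gene with the largest rise (Pgam1), a called glycolytic gene known from its hypoxia response elements (Ldha), and the red cell genes Bpgm and Pklr, which were not called. Each is the 250 bases before a RefSeq transcription start in build GRCm38.p6, all on the plus strand, at chr3:104638414-104638663 for Slc16a1, chr19:41911621-41911870 for Pgam1, chr7:46845554-46845803 for Ldha, chr6:34476106-34476355 for Bpgm and chr3:89135892-89136141 for Pklr. For Ldha and Pklr, which have 2 starts each in RefSeq, the upstream one is shown. This build differs from GRCm39, on which the counts were made. Capitals mark letters found on either strand. ACGTG is the core of hypoxia response elements, and its variant GCGTG serves the same factors. CACCC is the core of sites bound by Kruppel-like factors. AGATAA is a site of the erythroid factor GATA1 and its relatives, which also bind TGATAA.
Slc16a1: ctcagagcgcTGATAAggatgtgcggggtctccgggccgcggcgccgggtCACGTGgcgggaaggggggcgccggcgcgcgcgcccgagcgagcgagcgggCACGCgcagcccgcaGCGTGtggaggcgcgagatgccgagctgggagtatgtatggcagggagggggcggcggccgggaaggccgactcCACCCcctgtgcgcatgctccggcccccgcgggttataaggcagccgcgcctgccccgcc
Pgam1: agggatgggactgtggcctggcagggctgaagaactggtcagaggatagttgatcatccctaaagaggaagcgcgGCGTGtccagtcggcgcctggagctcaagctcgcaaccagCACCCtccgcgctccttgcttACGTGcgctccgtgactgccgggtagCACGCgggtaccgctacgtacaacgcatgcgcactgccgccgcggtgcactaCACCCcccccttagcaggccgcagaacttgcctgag
Ldha: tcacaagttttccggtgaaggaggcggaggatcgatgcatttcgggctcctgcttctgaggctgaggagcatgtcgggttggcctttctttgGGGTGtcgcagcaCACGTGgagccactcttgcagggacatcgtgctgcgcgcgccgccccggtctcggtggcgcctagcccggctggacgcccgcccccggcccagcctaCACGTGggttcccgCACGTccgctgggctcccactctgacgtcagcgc
Bpgm: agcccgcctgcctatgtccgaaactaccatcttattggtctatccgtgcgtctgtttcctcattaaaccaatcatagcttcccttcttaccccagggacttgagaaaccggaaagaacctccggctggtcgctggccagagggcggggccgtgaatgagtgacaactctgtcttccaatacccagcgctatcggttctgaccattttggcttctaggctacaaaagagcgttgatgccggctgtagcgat
Pklr: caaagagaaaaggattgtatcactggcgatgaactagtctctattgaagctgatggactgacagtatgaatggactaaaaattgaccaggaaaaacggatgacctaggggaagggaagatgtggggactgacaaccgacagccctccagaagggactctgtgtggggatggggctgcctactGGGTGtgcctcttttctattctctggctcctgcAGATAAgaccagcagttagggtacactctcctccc
The Bpgm window held none of these letters, and the Pklr window held 1 AGATAA and 1 match of the Kruppel-like letters. Counting each palindromic CACGTG on both strands, the hypoxia core ACGTG was found 5 times in the Ldha window, 2 times in that of Slc16a1 and 1 time in that of Pgam1. The Ldha window held 2 CACGTG and that of Slc16a1 held 1, so both matches in Slc16a1 are 1 site. Of the 34 genes, 33 had a RefSeq start (Slc2a3 had none in the table), with 48 windows in all, since some genes have several starts whose windows can overlap. ACGTG was present in 33.3% of the 21 windows of genes called higher, 23.1% of the 26 windows of genes not called, and 16.6% of all 32851 windows of this length. GCGTG was present in 52.4%, 53.8% and 28.2% of the same 3 sets, and CACCC in 61.9%, 61.5% and 52.0%. For the GATA letters the shares were 0%, 15.4% and 9.99% for AGATAA and 9.52%, 7.69% and 7.94% for TGATAA. The windows also differed in base composition, with a median GC content of 61.2%, 55.8% and 52.4% in that order. These shares are descriptions and were not tested.

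Of the 3 transporter genes among the 34, Slc2a3 rose, Slc16a1 fell and Slc2a1 was not called. The largest fall among the 34 genes was that of Slc16a1, which encodes the monocarboxylate transporter MCT1 that carries lactate and pyruvate across the membrane. Slc16a1 was at 419 and 387 CPM in the KO libraries, against 743 and 737 CPM in the fl/fl libraries. Its log2 fold change was -0.88 (SE 0.05, edgeR adjusted p = 1.33e-08), a ratio of 0.545, and in the fits without 1 library or with other scalings, filters or offsets it lay between -0.95 and -0.73 and stayed called. Slc2a3, the high-affinity glucose transporter GLUT3, was at 191 and 228 CPM in KO against 129 and 132 CPM in fl/fl, a log2 fold change of 0.69 (SE 0.09, edgeR adjusted p = 4.57e-05). Slc2a4, of the same gene family but outside the 34 and named after its values were seen, was at 72.7 and 66.9 CPM in KO. In fl/fl it was at 75.0 and 77.1 CPM, and it was not called (-0.12, SE 0.11). Slc2a1 encodes GLUT1, the glucose transporter of human red cells, and was lower than Slc2a4 here, at 9.97 and 16.9 CPM in KO against 10.6 and 10.9 CPM in fl/fl. The genotypes overlapped for Slc2a1, whose log2 fold change of 0.32 (SE 0.30) was not called and was -0.12 without KO library 2. Another lactate transporter gene outside the 34, Slc16a3 (MCT4), named after its values were seen, was at 70.8 and 90.03 CPM in KO against 54.8 and 56.1 CPM in fl/fl and was called higher (0.54, SE 0.13, edgeR adjusted p = 0.00832). Its call was lost without fl/fl library 1 (0.50) and with the GC offset (0.34), and its value was 0.34 without KO library 2.

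**Figure D2:**
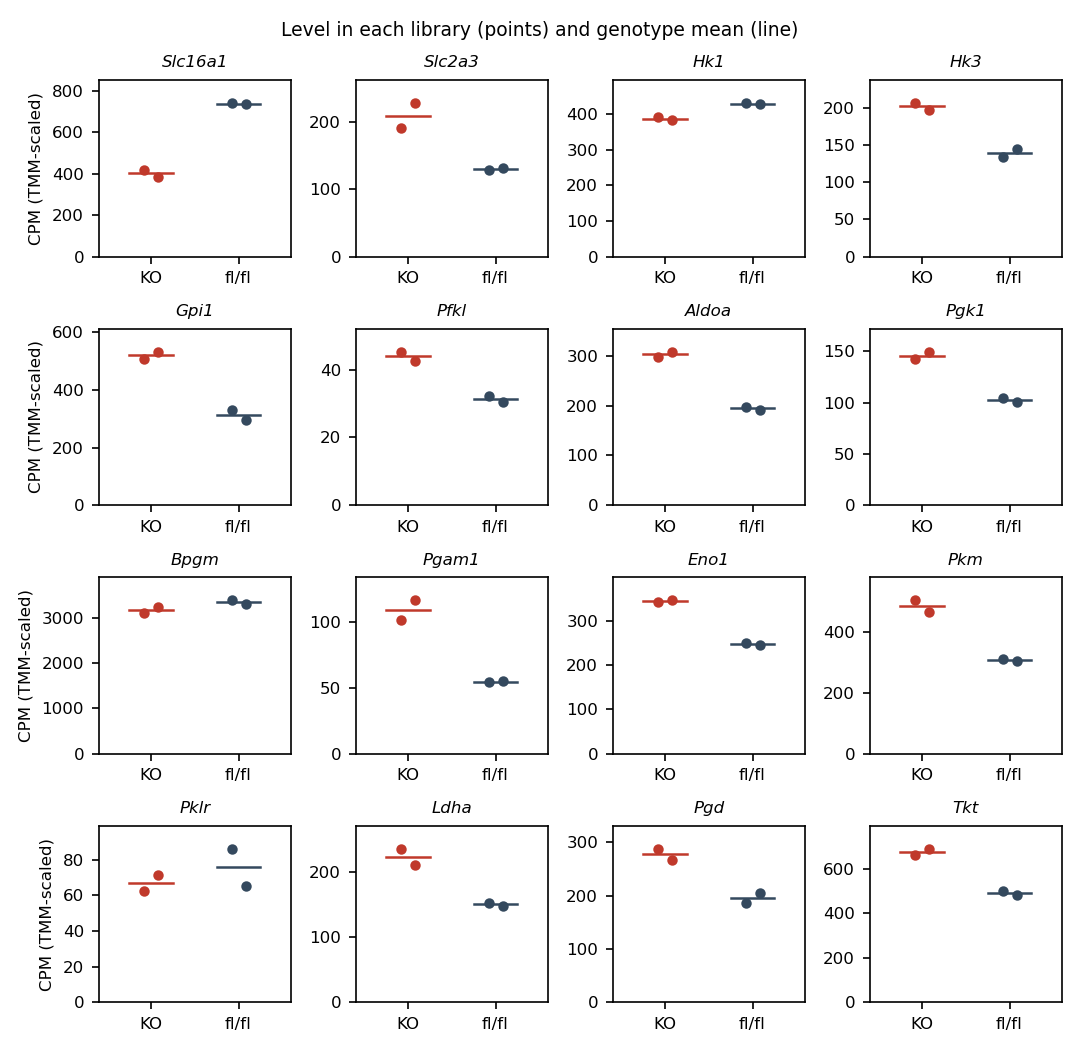
Level of 16 of the 34 genes in each library in CPM, scaled by TMM, with KO on the left and fl/fl on the right of each panel, points for libraries and lines for genotype means. The genotypes are separated in every panel except that of Pklr, and Slc16a1, Hk1 and Bpgm lie lower in KO.

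Of the hexokinases, which trap glucose in the cell by phosphorylation, Hk3 rose and neither Hk1 nor Hk2 was called. Hk3, a hexokinase abundant in myeloid cells, was at 206 and 197 CPM in KO against 134 and 144 CPM in fl/fl. It rose by a log2 fold change of 0.54 (SE 0.08, edgeR adjusted p = 1.27e-04), which was 0.33 with the GC offset. Hk1, the red cell hexokinase, was at 391.8 and 384 CPM in KO against 431 and 428 CPM in fl/fl, a small difference with no overlap. Its log2 fold change of -0.15 (SE 0.05, edgeR adjusted p = 0.0635) was not called, but it was called lower without KO library 1 (-0.18) or KO library 2 (-0.15), without the filter on low counts (-0.17) and with the GC offset (-0.34). Hk2, an inducible hexokinase, was at 30.6 and 31.9 CPM in KO against 27.6 and 28.7 CPM in fl/fl and was not called. Per base of transcript, Hk1 made up 56.8% and 57.2% of the 3 hexokinase genes in KO against 68.4% and 66.7% in fl/fl, and Hk3 39.7% and 39.1% against 28.2% and 29.9%. The log2 ratio of Hk3 to Hk1 counts was 0.69 higher in KO; the two-sided exact permutation p was 0.333, and no smaller p is possible with 2 against 2 libraries.

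In upper glycolysis Gpi1, which interconverts glucose and fructose phosphates, had the largest rise of the steps with a single gene among the 34. Its level was 508 and 533 CPM in KO against 331 and 295 CPM in fl/fl (log2 fold change 0.73, SE 0.06, edgeR adjusted p = 6.26e-07). Its annotated exons overlap the antisense gene Gm26762 over 11.5% of their length, and with the strand setting not given such reads cannot be told apart. Phosphofructokinase, the main control point of glycolysis, is a tetramer of the products of Pfkl, Pfkm and Pfkp. Pfkl was at 45.4 and 42.5 CPM in KO against 32.3 and 30.6 CPM in fl/fl and was called higher (0.48, SE 0.15, edgeR adjusted p = 0.0391). That call was lost without fl/fl library 1 (0.51, adjusted p = 0.255) or 2 (0.44, 0.389), without the low count filter, with DESeq2's test and with the GC offset (0.28). Pfkm was at 54.8 and 45.0 CPM in KO against 58.5 and 57.9 CPM in fl/fl; its log2 fold change of -0.22 was called only without KO library 1, at -0.38, among all fits run, and was -0.10 without KO library 2 and -0.37 with the GC offset. On the same strand, Gm26513 shares 10.2% of the exon length of Pfkm and held 3 to 15 counts a library. Pfkp showed overlapping genotypes and a log2 fold change of -0.05 (SE 0.18). Of the 3 genes, Pfkl took 35.4% and 36.6% of counts per base in KO against 26.2% and 25.8% in fl/fl, and Pfkm 55.4% and 50.2% against 61.5% and 63.3%.

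None of the 3 regulator genes among the 34 was called. Pfkfb3 and Pfkfb4, whose products set the level of the phosphofructokinase activator fructose-2,6-bisphosphate, had log2 fold changes of 0.43 (SE 0.17, edgeR adjusted p = 0.0918) and -0.10 (SE 0.15). Pfkfb3 was called without KO library 1, at 0.46, and Pfkfb4 was -0.17 without KO library 1, -0.06 without KO library 2 and -0.25 with the GC offset. Pfkfb2, of the same family but outside the 34 and named after its values were seen, was at 11.8 and 18.1 CPM in KO against 24.1 and 29.9 CPM in fl/fl. It was called lower (-0.85, SE 0.24, edgeR adjusted p = 0.0199), a call lost without fl/fl library 2 (-0.70). Pdk1, which encodes a kinase that inhibits pyruvate dehydrogenase, was at 25.6 and 26.6 CPM in KO against 27.04 and 24.2 CPM in fl/fl, with a log2 fold change of 0.03.

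From aldolase to enolase Aldoa, Pgk1 and Eno1 rose and Tpi1 was not called. Aldoa, the aldolase of red cells and muscle, was at 298 and 308 CPM in KO against 198 and 190 CPM in fl/fl (log2 fold change 0.64, SE 0.06, edgeR adjusted p = 3.60e-06). A second identifier with the symbol Aldoa held 9 to 24 counts a library and was not called, and with both summed the rise was called too. Tpi1, which equilibrates the triose phosphates, was at 105.2 and 99.9 CPM in KO against 96.1 and 76.9 CPM in fl/fl, and its log2 fold change of 0.25 was called only without KO library 2, at 0.27, among all fits run. It was 0.40 or 0.08 when fl/fl library 1 or 2 was left out, and 0.14 with the GC and 0.13 with the length offset. Pgk1, the first enzyme of glycolysis to make ATP, was at 142 and 150 CPM in KO against 104.8 and 100.5 CPM in fl/fl (0.51, SE 0.09, edgeR adjusted p = 5.62e-04). Eno1 was at 343 and 346 CPM in KO against 250.4 and 245 CPM in fl/fl (0.48, SE 0.06, edgeR adjusted p = 3.00e-05), a value of 0.26 with the GC offset. The tissue-restricted genes of these steps were scarce. Aldoc held at most 9 counts a library and Eno2 at most 4, so neither was tested, and Eno3, the muscle enolase, lay between 4.63 and 6.82 CPM and was not called.

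Reads of Gapdh, which encodes the glycolytic enzyme that makes NADH, were split among copies, so its level is uncertain. Its identifier held 223 and 168 counts in KO against 128 and 115 in fl/fl, 31.3 and 24.7 CPM against 18.1 and 16.7 CPM. In the GENCODE M21 annotation 85 pseudogenes matched its transcript with at least 95% identity over at least 200 bases, and together they held 1149 and 1060 counts in KO against 743 and 756 in fl/fl. The genotypes did not overlap in either sum. The call of Gapdh (log2 fold change 0.69, SE 0.21, edgeR adjusted p = 0.029) was lost when fl/fl library 1 (0.73), fl/fl library 2 (0.62) or KO library 1 (0.49) was left out, with DESeq2's test and with the GC offset. No other gene of the 34 had more than 4 such pseudogenes, and theirs held at most 43 counts a library. Genes not annotated as pseudogenes also matched some of the 34, among them Eno1b for Eno1 and Gm49759 for Pkm.

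The mutase step held both the most abundant gene and the largest rise. Bpgm, the red cell enzyme that makes 2,3-bisphosphoglycerate, was the highest of the 34 genes per kilobase of transcript in both genotypes, with means of 1427 CPM per kilobase in KO and 1507 in fl/fl. It was at 3099 and 3237 CPM in KO against 3383 and 3310 CPM in fl/fl. The log2 fold change of -0.08 (SE 0.03, edgeR adjusted p = 0.0997) was not called; it was called lower in the absence of fl/fl library 2 (-0.10) or KO library 2 (-0.12), without the low count filter (-0.10), with DESeq2's test (-0.09) and with the length offset (-0.15). Pgam1, its paralog that converts 3-phosphoglycerate to 2-phosphoglycerate in glycolysis, was at 102 and 117 CPM in KO against 54.6 and 55.2 CPM in fl/fl. Its log2 fold change of 0.99 (SE 0.11, edgeR adjusted p = 1.08e-05), a ratio of 1.99, was the one call among the 16 that also held with a coefficient of variation of 0.2 assumed. Pgam1 took 3.94% and 4.32% of the counts per base of this pair in KO against 1.98% and 2.04% in fl/fl. The log2 ratio of Pgam1 to Bpgm counts differed by 1.07, with the same two-sided exact permutation p of 0.333.

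Pyruvate kinase and lactate dehydrogenase close glycolysis. Pkm, the gene of the pyruvate kinase of most tissues, was at 505 and 465 CPM in KO against 312 and 304 CPM in fl/fl (log2 fold change 0.65, SE 0.06, edgeR adjusted p = 1.03e-06), and 0.43 with the GC offset. On the same strand, Gm49759 shares 15.3% of the exon length of Pkm and held 45 to 61 counts a library. Pklr, whose red cell transcript encodes the pyruvate kinase of mature red cells, was at 62.3 and 71.3 CPM in KO against 86.1 and 65.5 CPM in fl/fl. The genotypes overlapped, and the 2 fl/fl libraries were further apart than the means. Its log2 fold change of -0.18 (SE 0.13) was not called, was called lower without KO library 2 (-0.30) and was 0.01 or -0.37 when fl/fl library 1 or 2 was left out, -0.10 in the absence of KO library 1 and -0.31 with the GC offset. Exons of Pklr overlap the antisense gene Hcn3 over 21.97% of their length. Pkm made up 90.6% and 88.6% of the pair per base in KO against 81.2% and 84.7% in fl/fl, so it was the main pyruvate kinase gene in all 4 libraries. Ldha was at 235 and 211 CPM in KO against 152 and 148 CPM in fl/fl (0.57, SE 0.08, edgeR adjusted p = 7.60e-05). Ldhb lay at 8.14 and 9.71 CPM in KO against 5.66 and 5.37 CPM in fl/fl and was not called (0.69, SE 0.35, edgeR adjusted p = 0.197).

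**Figure D3:**
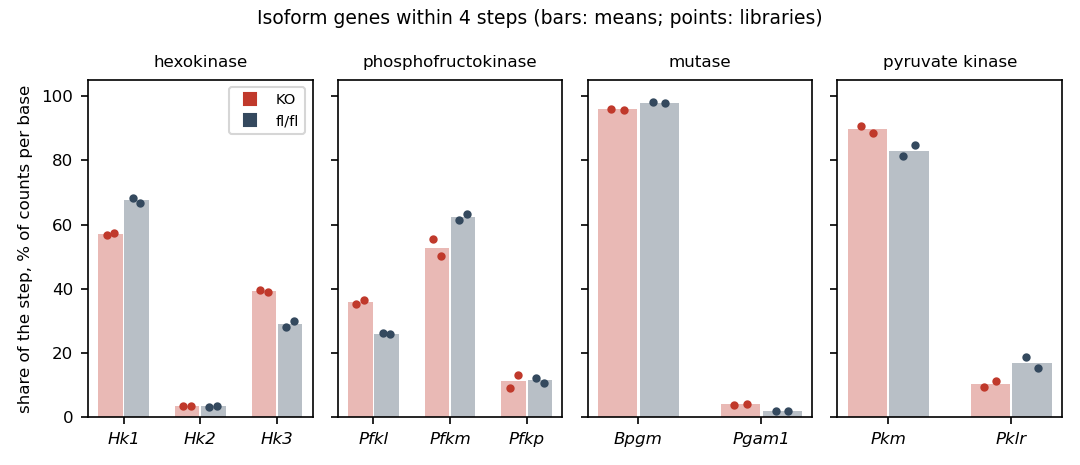
Share of each gene among the genes of its step, in percent of counts per base of the longest annotated transcript, with KO left of fl/fl, bars for means and points for libraries. The KO libraries show a smaller share of Hk1, Pfkm and Pklr and a larger share of Hk3, Pfkl and Pkm, and Bpgm exceeds 95% of the mutase pair throughout.

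The genes were also grouped by textbook knowledge of which isoform red cells use, mostly from human red cells. Against 8.5% of all genes higher and 9.89% lower, 4 of the 11 identifiers classed as red cell type were higher (Pfkl, Aldoa, Pgam1, Eno1) and 1 was lower (Slc16a1). Aldoa enters that class with 2 identifiers. Of 9 tested genes classed as other, 3 were higher (Slc2a3, Hk3, Pkm) and none was lower. The class named other also holds the regulator genes Pfkfb3, Pfkfb4 and Pdk1, which are not isoforms of a gene in the red cell class and were not called. The 2 shares are therefore not a like comparison of isoforms. Among the 11 genes that are alone at their step within the 34, 7 were higher and none was lower. Over 9 isoform pairs with at least 10 counts in every library, the genotypes were separated in 7, each with an exact p of 0.333, or 0.429 adjusted over the 9. The 2 that overlapped were Pfkp to Pfkm and Ldhb to Ldha. Of all single genes tested, 29.4% were separated with KO higher and 28.2% with KO lower, and no such share was taken over pairs. Some pairs share a gene, so they are not independent. In the pairs of an other isoform to a red cell one, the log2 ratio was higher in KO by 0.82 for Pkm to Pklr, 0.69 for Hk3 to Hk1, 0.41 for Slc2a3 to Slc2a1 and 0.30 for Hk2 to Hk1, and differed by -0.53 for Pfkp to Pfkl and by -0.80 for Eno3 to Eno1. Without KO library 1 the difference was 0.15 for Slc2a3 to Slc2a1 and -0.30 for Pfkp to Pfkl.

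All 3 genes of the oxidative pentose phosphate branch among the 34 were called higher. This branch makes NADPH. The lactonase gene Pgls was at 89.5 and 85.02 CPM in KO against 55.5 and 54.1 CPM in fl/fl (log2 fold change 0.67, SE 0.11, edgeR adjusted p = 4.34e-04). A neighbour on the same strand, Fam129c, shares 20.6% of its exon length. Pgd, the second NADPH-producing dehydrogenase, was at 288 and 267 CPM in KO against 186 and 205 CPM in fl/fl (0.51, SE 0.07, edgeR adjusted p = 1.05e-04). G6pdx, which encodes the enzyme that opens the pathway, was at 175 and 154 CPM in KO against 137 and 134 CPM in fl/fl (0.28, SE 0.08, edgeR adjusted p = 0.029). The G6pdx call was lost when fl/fl library 1 (0.28), fl/fl library 2 (0.26) or KO library 1 (0.17) was left out, with DESeq2's test, and with the GC (0.20) or length offset (0.23). Its antisense neighbour Ikbkg overlaps 13.6% of its exon length.

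The non-oxidative branch, which recycles pentoses to glycolytic intermediates, changed in 1 of its 4 genes among the 34. Tkt, transketolase, was at 662 and 690 CPM in KO against 502 and 481 CPM in fl/fl (log2 fold change 0.46, SE 0.05, edgeR adjusted p = 8.05e-06). Taldo1, transaldolase, second to Bpgm per kilobase in both genotypes, was at 477 and 537 CPM in KO against 487 and 479.5 CPM in fl/fl, with overlapping genotypes. The log2 fold change of Taldo1 was 0.07 (SE 0.06), called higher without KO library 1 at 0.14 and -0.03 without KO library 2. Rpe, the pentose epimerase, was at 36.8 and 26.2 CPM in KO against 45.7 and 43.2 CPM in fl/fl; it was not called (-0.50, SE 0.17, edgeR adjusted p = 0.0615). It was called lower without KO library 1 (-0.78), with the length offset (-0.55) and without the low count filter (-0.52). Its value was -0.29 without KO library 2 and -0.30 with the GC offset. The antisense gene Kansl1l overlaps 17.9% of its exon length. Rpia, the pentose isomerase, was at 68.4 and 61.2 CPM in KO against 69.5 and 70.0 CPM in fl/fl and was not called. Its log2 fold change of -0.11 was -0.20 without KO library 1, -0.04 without KO library 2 and -0.03 with the GC offset.

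Other genes around these pathways were taken from 3 textbook lists. Of 48 tested genes of sugar and pyruvate handling outside the 34, 10 were higher and 3 lower, against 8.5% and 9.89% of all genes, with a median log2 fold change of 0.08. Bsg, which encodes the chaperone of MCT1 at the membrane and was the most abundant of the list, fell to 962 and 948 CPM in KO, against 1179 and 1119 CPM in fl/fl (-0.27, SE 0.04, edgeR adjusted p = 2.41e-04), and its log2 fold change was -0.49 with the GC offset. Pygl, a glycogen phosphorylase gene, rose (0.42, SE 0.07, edgeR adjusted p = 4.14e-04), as did the glycogen synthase gene Gys1 (0.70, SE 0.16, edgeR adjusted p = 0.00588), whose call was lost without fl/fl library 1 at 0.56. The higher count was 2 or 3 when fl/fl library 1 or 2 was left out, 4 with DESeq2's test and 6 with the GC offset. The lower count was 1 in the absence of fl/fl library 2 and 5 in that of KO library 1.

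Hypoxia regulators and targets outside the 34 genes were higher for 4 and lower for 2 of 21 tested, against 8.5% and 9.89% of all genes. Their median log2 fold change was 0.28, against 0.02 over all genes tested. Separated genotypes were seen with KO higher for 11 of the 21, against 29.4% of all genes tested, and with KO lower for 5, against 28.2%. Egln3, an oxygen-sensing prolyl hydroxylase gene, was at 13.3 and 9.86 CPM in KO against 4.53 and 2.03 CPM in fl/fl (1.81, SE 0.41, edgeR adjusted p = 0.00555). Ndrg1 rose as well (0.95, SE 0.23, edgeR adjusted p = 0.00812), and both calls were lost without fl/fl library 2, at 1.34 and 0.82. The demethylase gene Kdm3a fell (-0.57, SE 0.15, edgeR adjusted p = 0.0157), a call lost without fl/fl library 1 (-0.53) and with the GC offset (-0.48). Bnip3l, a mitophagy receptor gene and the most abundant of the list, was at 1292 and 1338 CPM in KO against 1379 and 1393 CPM in fl/fl and was not called (-0.08), except without KO library 2 (-0.11). The higher count of this list was 2 or 0 when fl/fl library 1 or 2 was left out; the lower count was 0 in the absence of fl/fl library 1 and 5 in that of KO library 1. Both KO libraries lay above both fl/fl libraries for 6 of 17 tricarboxylic acid cycle enzymes, against 29.4% of all genes tested. They lay below for none, against 28.2%. Of these 17 enzymes 1 was called higher and none lower, against the same 8.5% and 9.89%. So few genes cannot tell the share called from that of all genes. It was Mdh2, at 200 and 181 CPM in KO against 161 and 148 CPM in fl/fl (0.31, SE 0.08, edgeR adjusted p = 0.0148), lost without fl/fl library 2 at 0.24 and with the length offset at 0.19. Fh1 and Ogdh, the most abundant of these enzymes, missed the threshold at log2 fold changes of 0.32 and 0.13, though Fh1 was called without KO library 2 at 0.48 and was 0.12 without KO library 1. Ogdh was 0.05 or 0.20 when fl/fl library 1 or 2 was left out and 0.05 with the GC offset. When KO library 1 or KO library 2 was left out, 2 of these enzymes were higher.

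Markers of other cells moved with genotype beside the sugar metabolism genes, and their part in these results was not tested. The counts below stand against 8.5% called higher and 9.89% lower among all genes tested. Among genes with a mean of at least 50 CPM these shares were 17.5% and 28.2%. Among primary granule genes of neutrophils 9 of 10 tested were higher and none lower, with Mpo at 2834 and 2952 CPM in KO against 1187 and 1183 CPM in fl/fl. Late neutrophil genes were higher for 12 of 16 and lower for none, with S100a8 at 3016 and 3025 CPM in KO against 2170 and 2266 CPM in fl/fl. Megakaryocyte and platelet genes were higher for 11 of 14 and lower for none, with a summed level of 266 and 260 CPM in KO against 122 and 104.98 CPM in fl/fl; Pf4 was at 22.5 and 25.3 CPM against 3.11 and 4.21 CPM, and Gp1bb was at 0 in all libraries. Stem and progenitor genes summed to 110 and 89.3 CPM in KO against 61.0 and 59.5 CPM in fl/fl, with 3 of 7 tested higher and none lower. Monocyte and macrophage genes summed to 1083 and 1072 CPM in KO against 913 and 896 CPM in fl/fl. Their members were mixed, with 4 of 15 higher, 2 lower and a median log2 fold change of 0.01. B cell genes summed to 251 and 261 CPM in KO against 265 and 283 CPM in fl/fl, with 1 of 11 tested higher and none lower. Eosinophil, basophil and mast cell genes summed to 839 and 858 CPM in KO against 910 and 849 CPM in fl/fl. Of these 10 genes none was higher and 3 were lower, with a median log2 fold change of -0.21. Stromal and endothelial genes summed to 244 and 296 CPM in KO against 146 and 153 CPM in fl/fl, with Emcn at 0 in all libraries. Of 5 tested, 2 were higher and none lower. T and NK cell genes summed to 58.6 and 61.0 CPM in KO against 53.2 and 49.4 CPM in fl/fl, and none of 6 tested was called.

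**Figure D4:**
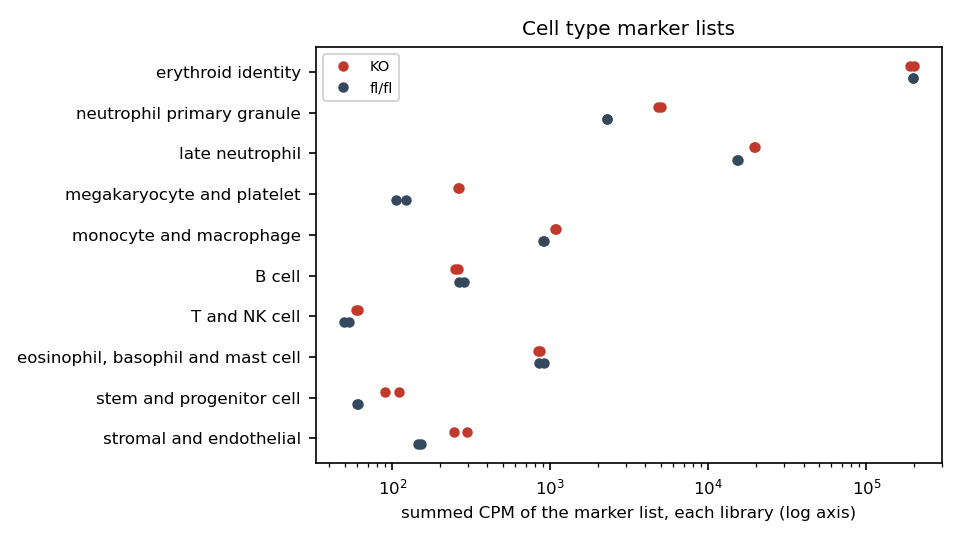
Summed level of 10 marker lists in each library, in CPM on a log axis, with KO above fl/fl in each row. The primary granule list is at 4828 and 5009 CPM in KO and at 2298 and 2276 CPM in fl/fl. The erythroid list, whose sum is carried by globins, is at 187618 and 198710 CPM in KO and at 198480 and 198606 CPM in fl/fl.

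The median GC content of the longest transcript was 52.8% over the genes called higher, 53.0% over the 33 identifiers and 49.6% over all genes tested. An offset that removes the trend of each library with GC content brought the called genes Hk3, Eno1 and Pkm to 0.33, 0.26 and 0.43, Aldoa to 0.44, Pgls to 0.45 and Tkt to 0.33, all still called, whereas Pgd was at 0.54 and Slc2a3 at 0.74. Levels of 21 immediate early genes, which handling can raise, summed to 7479 and 7515 CPM in KO against 5583 and 5444 CPM in fl/fl. Of these, 13 were higher and 1 was lower, against 8.5% and 9.89% of all genes tested. Mitochondrially encoded genes summed to 8353 and 8775 CPM in KO against 7828 and 8398 CPM in fl/fl, with mt-Atp8 at 0 in all libraries. Of 10 tested, 5 were higher and none lower, against the same shares of all genes.

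**Figure D5:**
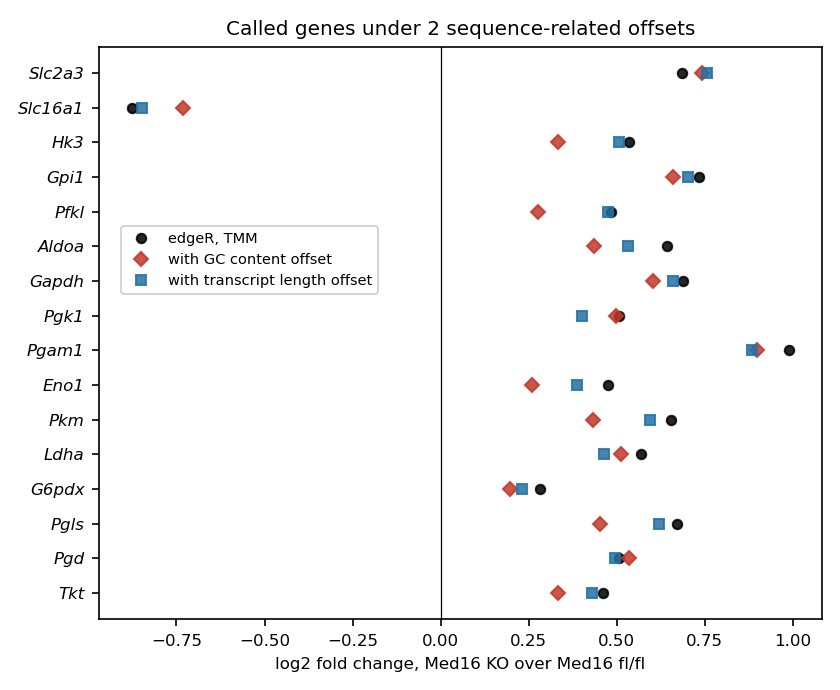
Log2 fold change of KO over fl/fl for the 16 called genes in the edgeR fit with TMM scaling (circles), with a GC content offset (diamonds) and with a transcript length offset (squares). No gene changes sign, and the GC content offset brings Eno1 to 0.26 and Hk3 to 0.33 from values near 0.5.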

How the data were processed

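Whole-number counts per gene were deposited by the authors, 1 table for each of 4 libraries. Per the submitters' processing notes, the tools were HISAT2 2.1.0 and HTSeq 0.12.4, besides FastQC 0.11.7, HOMER and DESeq2, and the build was GRCm39. Strand setting and annotation release: not given in the sources used here. The 5 rows that name no gene were left out; among them reads with no feature made up 35.8% to 36.7% of all reads, and reads without a unique alignment 23.6% to 26.4%, which lowers counts of genes with near-identical copies.

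Genes were kept with filterByExpr, scaled by TMM and compared with edgeR 4.0.16 (R 4.3.3) by the quasi-likelihood test, two-sided, with genotype as the only term and Benjamini-Hochberg adjustment over 13052 genes. The SE is the log2 fold change divided by the square root of F. The common coefficient of variation was 0.125. At these depths 3 counts, the limit that a count of 0 allows, equal 0.416 to 0.444 CPM, for counting error only. Isoform ratios were compared by exact permutation (scipy 1.17.1). Transcript lengths, GC content, overlaps and copies (blastn 2.17.0) came from GENCODE M21 of GRCm38, which held 98.4% of the genes tested, and promoters from RefSeq. All 34 genes were described, with 3 genes by adjusted p and the most abundant from each pathway list. The genes, lists and isoform classes were chosen with earlier results of these data known. Alternatives were DESeq2 1.42.0, other scalings, no filter, GC and length offsets, an assumed coefficient of variation of 0.2, summed identifiers, a replicate block and leaving out each library.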

Additional observations from a re-analysis of the deposited data

Results flagged for a closer look

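Reads not aligned, which enter no comparison of genes, made up 2.69% and 3.27% of all reads in the KO libraries and 1.05% and 0.826% in the fl/fl libraries. They are listed because both KO libraries lay above both fl/fl libraries in data outside the gene counts.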

How the results depend on the processing

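Of the 16 called sugar metabolism genes, 13 kept their direction and call under every alternative except an assumed coefficient of variation of 0.2; the exceptions were Pfkl, Gapdh and G6pdx. With 0.2 assumed, 1 of the 34 genes was higher and 0 were lower, over all genes 331 and 289 were called, and the lists gave 0 higher and 0 lower (sugar and pyruvate), 1 and 0 (hypoxia) and 0 higher (tricarboxylic acid cycle); the cause of the other changes below was not tested. With DESeq2's test 736 genes were higher, and 2 of the 34 genes were lower, 4 sugar and pyruvate genes higher and 2 hypoxia genes higher. Genes of the 34 called lower were 4 without the filter, 2 with the GC offset and 3 with the length offset. With the GC offset 6 sugar and pyruvate genes and 2 hypoxia genes were higher and 0 hypoxia genes lower; the length offset gave 0 tricarboxylic acid cycle genes higher and 1 hypoxia gene lower, as did library size alone (1). Changes of sign, all in genes not called, were Pfkp at 0.0064 with library size alone and 0.067 with the length offset, Taldo1 at -0.045 with the GC and -0.038 with the length offset, and Bnip3l at 0.092 with the GC offset.

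Leaving out 1 library, which takes the spread from the other genotype, gave 454 to 1839 genes higher and 704 to 2172 lower, 12 to 16 of the 34 genes higher and 1 to 4 lower. The sugar and pyruvate list gave 2 to 14 higher and 1 to 5 lower, the hypoxia list 0 to 6 and 0 to 5, and the tricarboxylic acid cycle list 0 to 2 higher. Log2 fold changes ranged from -0.12 to 0.64 for Slc2a1, -0.26 to 0.12 for Pfkp, -0.33 to 1.01 for the second Aldoa identifier, -0.37 to 0.014 for Pklr, -0.061 to 0.094 for Pdk1 and -0.031 to 0.14 for Taldo1. The differences in log2 ratio ranged from -0.15 to 0.50 for Pfkp to Pfkm and from -0.083 to 0.33 for Ldhb to Ldha.

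In the labels, libraries with the same number share only that number, and whether they shared litter or handling is not known. The correlation of their deviations from the genotype means over 8898 genes was -0.00497, which cannot settle this with 2 libraries a genotype. With the replicate block 1268 genes were higher and 1499 lower, and 2 of the 34 genes were lower, Slc16a1 and Rpe. Depth limits Aldoc, Eno2, Ldhb and Eno3, which held few counts.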
